A study of Mus musculus with 18 samples.

Results

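The Myod1 locus was taken as a window of 100 kb on mouse chromosome 7 (mm9, 53580000 to 53680000), and its members were all ATAC-seq peaks whose summit lay inside it. The 4 deposited peak lists held 59 such peaks, which merged into 20 regions wherever peaks overlapped by at least 1 bp, out of 141979 merged regions in the genome. The gene lies at about 53631800 to 53634500 and reads towards higher coordinates, so distances below are counted from 53631800 and carry that approximation. In the RefSeq gene order of another build (GRCm38), the nearest protein-coding genes are Otog on the upstream side and Kcnc1 on the downstream side. No peak was assigned to either gene.

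Myod1 encodes MyoD, a basic helix-loop-helix transcription factor that binds E-boxes with E-protein partners and can turn other cell types into muscle. Its own transcription in muscle precursors is controlled by a promoter-proximal element and by upstream enhancers. One is the distal regulatory region, about 5 kb upstream, and the other is the core enhancer, about 20 kb upstream. In mouse transgenes the core enhancer is known for starting Myod1 expression in the embryo, and the distal regulatory region for keeping it on in differentiated muscle.

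ATAC-seq marks accessible DNA by the insertion of sequencing adapters with a transposase. The 12 ATAC-seq samples were skeletal muscle cells of wild-type and MyoD-null mice, as myoblasts (proliferating precursors) and as myocytes 24 h into myogenic differentiation, in 4 groups of 3. The labels give neither the allele, nor the age of the mice, nor how the cells were obtained, nor whether the 3 samples of a group came from separate animals. Each group is represented by 1 list called on its merged samples, so no value below has an error between replicates and no test between groups was possible. The 6 RNA-seq samples of the series (the C2C12 line with and without CTCF knockdown) were not analysed here, so no expression of Myod1 is given.

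The genotypes of the 2 myocyte lists were contradictory. Peaks in the list that the labels assign to wild-type myocytes are named MKO-DM, and peaks in the list assigned to MyoD-null myocytes are named WT-DM. The lists are therefore called "myocytes labelled wild type" and "myocytes labelled MyoD-null", and the genotype comparisons are given under both readings. The genome-wide background was taken as the most frequent local background, in reads, among the peaks of a list. It stood at 8.18 for wild-type myoblasts, 8.54 for MyoD-null myoblasts, 5.29 for myocytes labelled wild type and 6.34 for myocytes labelled MyoD-null. A summit over that background was listed from 20, 21, 15 and 17 reads, respectively. Where the local background is higher, more reads are needed. At the highest local background of the window the numbers were 49, 53, 63 and 49. Absence from a list means only that no summit passed the limit at that site, and not that the DNA was closed.

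The knocked-out gene was examined first. A peak covered the start of Myod1 in all 4 lists, MyoD-null myoblasts included. It spanned 53631453 to 53632594 in wild-type myoblasts, 53631454 to 53632519 in MyoD-null myoblasts, 53631394 to 53632686 in myocytes labelled wild type and 53631455 to 53632635 in myocytes labelled MyoD-null. The 4 summits lay within 64 bp of each other. Since the labels do not say which part of the gene was removed, a peak at the start checks neither genotype. No list had a summit inside the gene body between this peak and 2.7 kb after the start.

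**Figure D1:**
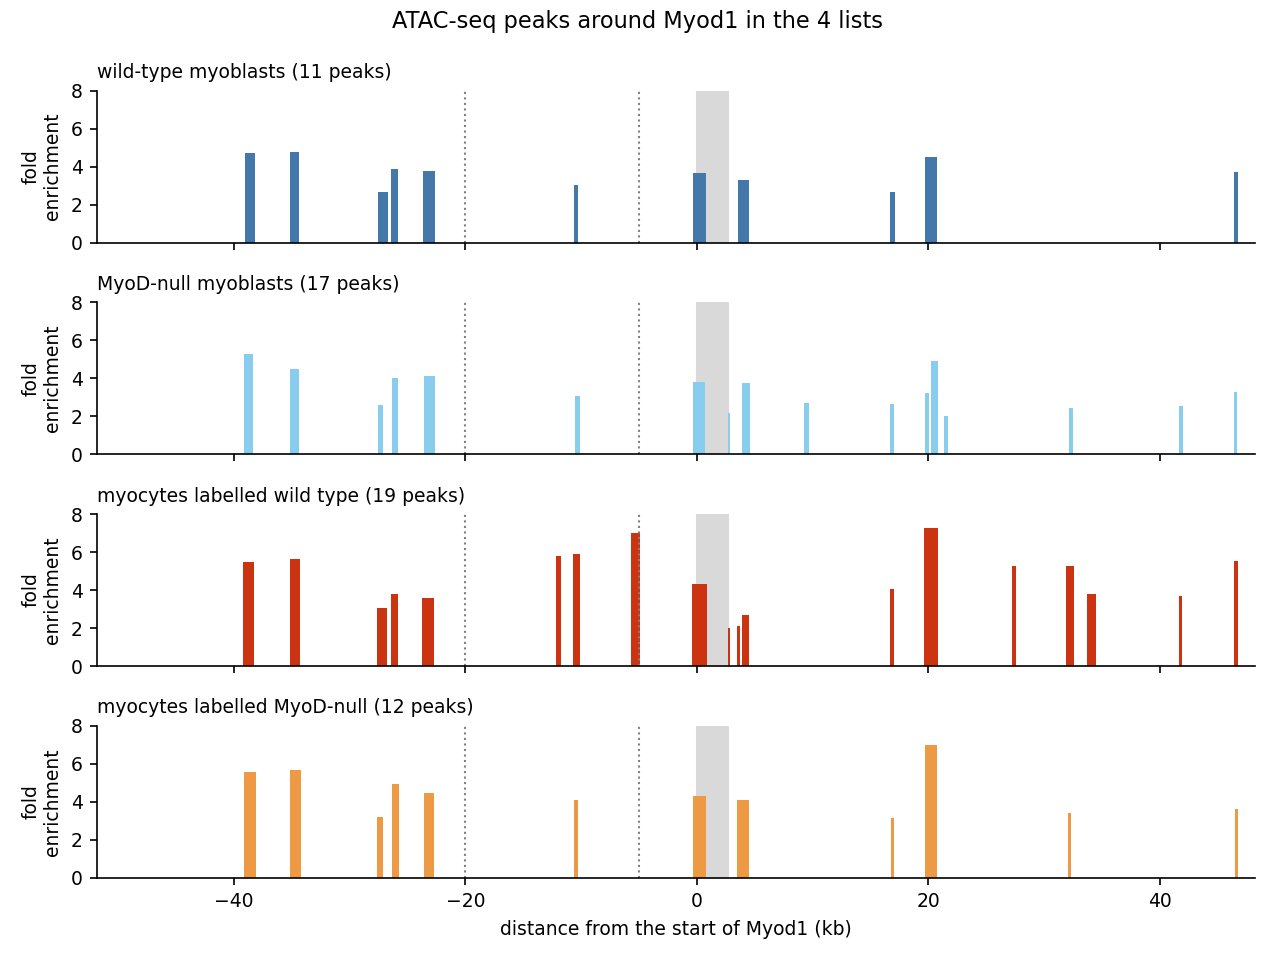
Peaks of the 4 lists by distance from the start of Myod1 (kb), 1 panel per list. Bar width is the peak width and bar height the deposited fold enrichment over the local background, grey shading marks the gene and dotted lines mark 5 and 20 kb upstream. A bar of 6.99 stands at 5 kb upstream in myocytes labelled wild type and in no other panel.

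The promoter peak had similar strength in every list. The authors' fold enrichment (summit reads over the local background) came to 3.67 (wild-type myoblasts), 3.82 (MyoD-null myoblasts), 4.33 (myocytes labelled wild type) and 4.32 (myocytes labelled MyoD-null). These folds were near the middle of each list, with 47.5%, 52.8%, 41.1% and 47.6% of all peaks below them. Recovered summit reads were 108, 122, 136 and 124 in the same order. Divided by the genome-wide background, they were 13.2, 14.3, 25.7 and 19.6 times background. Between the myoblast genotypes this height, wild type over MyoD-null, had a ratio of 0.924 (95% exact binomial interval 0.707 to 1.21). All such intervals cover counting error only. The promoter thus differed little by deposited fold, and was higher over the genome-wide background in both myocyte lists than in either myoblast list. Most of the genome moved in the same direction. The median height of the 65178 regions common to the 4 lists was 6.85, 6.91, 11.5 and 8.84 times background.

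The distal regulatory region was listed in 1 of the 4 lists. In myocytes labelled wild type, a peak of 747 bp at chr7:53626156-53626902 had its summit 5.1 kb before the start of Myod1. Its fold enrichment was 6.99, its deposited −log10 q was 51.7 and its summit carried 106 reads over a local background of 14.3. That is 20.1 times the genome-wide background, below the 25.7 of the promoter peak in the same list. No peak was listed there in wild-type myoblasts, MyoD-null myoblasts or myocytes labelled MyoD-null. If the local background at this site had been as high as at their promoter peaks, the lists would still have needed only 49, 53 and 49 reads, or 5.99, 6.20 and 7.73 times background, to list a summit. By the labels this peak was therefore listed in differentiated wild-type cells alone, and by the peak names in differentiated MyoD-null cells alone. The name of the element rests on the distance only. The peak also passed a −log10 q of at least 5 and a fold of at least 5, and it remained when all lists were cut to 88233 peaks. These settings only remove peaks, so they could not show whether a looser limit would list the site in another group.

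Regions found only in myocytes labelled wild type were common, and the peak at 5.1 kb was among the strongest of them. They made up 23132 of the 141979 regions, or 16.3%, and 4 of the 20 regions of the locus. The median height of this class was 5.68 times background and its 95th percentile 13.8. Only 131 of the 23132 were higher than the distal regulatory region and 138 had a higher −log10 q. By fold it was less extreme, with 1322 of the class above it. Its local background of 14.3 compares with 5.29 genome-wide.

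**Figure D2:**
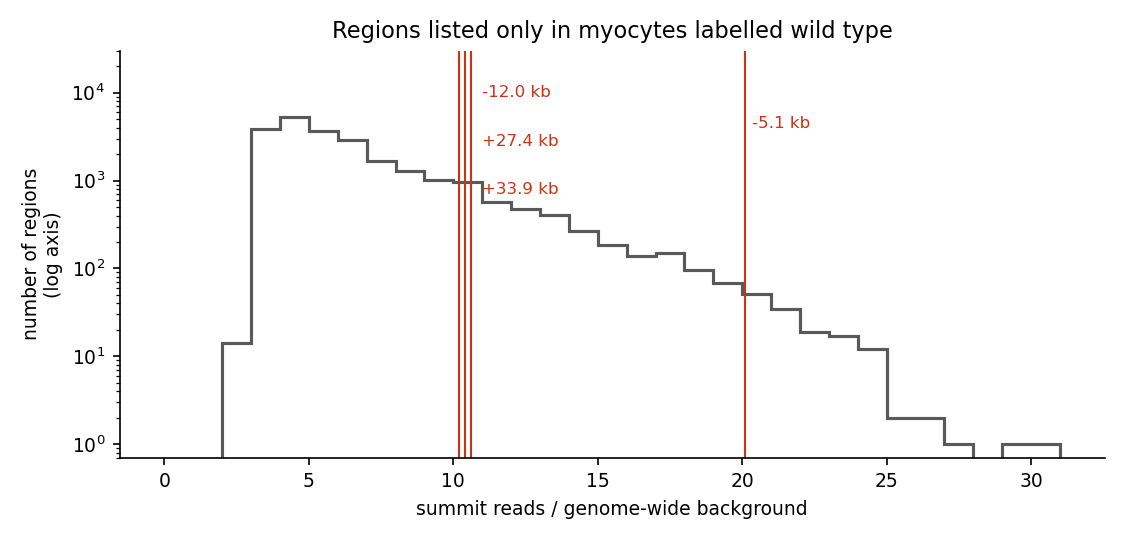
Number of regions (log axis) by summit height (summit reads over the genome-wide background) for the 23132 regions listed only in myocytes labelled wild type, in bins of 1. Red lines mark the 4 such regions of the Myod1 locus by distance from the gene start, and the one 5.1 kb upstream stands at 20.1, far right of the median of 5.68.

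No peak lay where the core enhancer was sought. The nearest summit to 20 kb upstream was 23.0 kb before the start, 3.0 kb away, and outside the 2 kb allowed for naming it. The distance of 20 kb is background knowledge and was not checked against mouse sequence, so whether the region at 23.0 kb holds the core enhancer cannot be told from these lists. That region, chr7:53608083-53609203, and its neighbours at 26.1 kb (chr7:53605407-53606040) and 27.4 kb (chr7:53604192-53605125) formed a cluster of 3 peaks present in all 4 lists. At 23.0 kb the fold was 3.75 in wild-type myoblasts, 4.14 in MyoD-null myoblasts, 3.58 in myocytes labelled wild type and 4.47 in myocytes labelled MyoD-null. At 26.1 kb it was 3.86, 4.04, 3.79 and 4.92 in the same order. At 27.4 kb the folds were lower, between 2.62 and 3.20. By fold, the myocytes labelled wild type were the lowest list at both stronger peaks.

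By summit height this list moved from the lowest to the highest, while the other 3 kept their order at 26.1 kb. At 26.1 kb the summits held 105, 125, 151 and 140 reads, or 12.8, 14.6, 28.6 and 22.1 times the genome-wide background. The local background of the myocytes labelled wild type was 39.1 reads there, against 27.6 in the other myocytes. Relative to each genome-wide background, this local level was 1.70 times as high in myocytes labelled wild type as in myocytes labelled MyoD-null. At 23.0 kb the same ratio was 1.66, and the fold ratio of 0.800 became a height ratio of 1.31 (1.02 to 1.69). A lower deposited fold at this upstream cluster therefore came with more reads at the summit and more reads around it. The length over which the local background was averaged is not given in the sources used here.

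**Figure D3:**
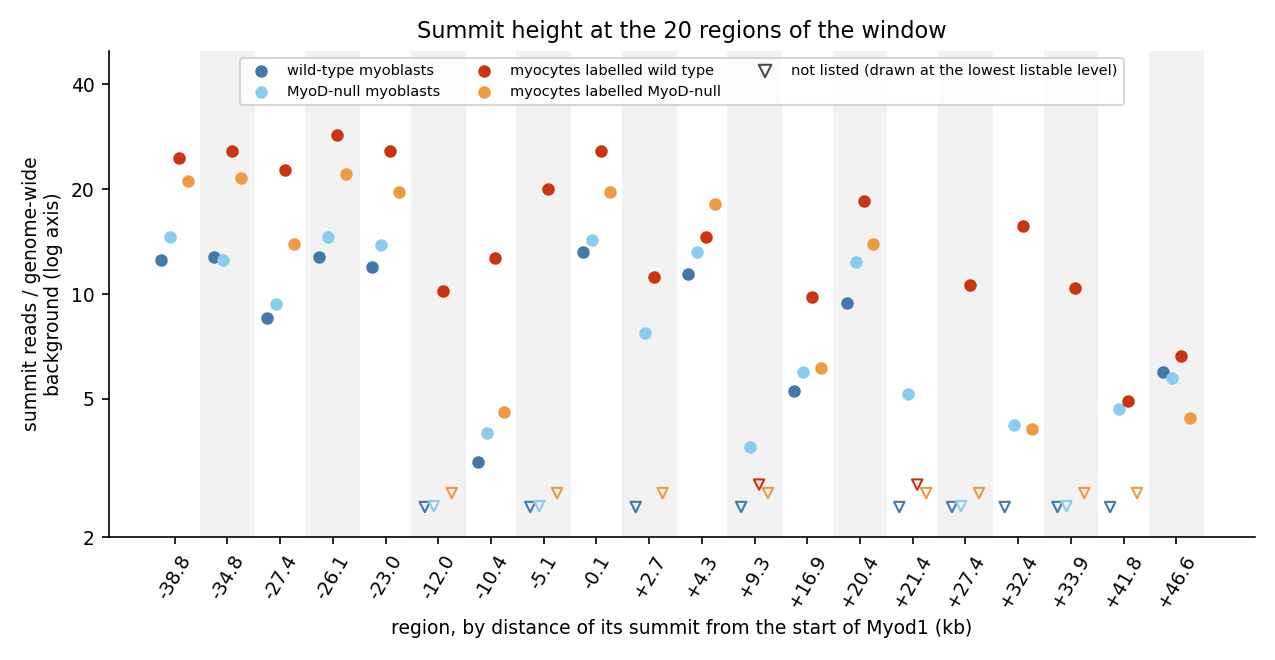
Height of the summit (reads over the genome-wide background, log axis) for the 20 regions of the locus, ordered by distance from the start of Myod1, in the 4 lists. Open triangles mark lists without a peak, drawn at the lowest height that could be listed over the genome-wide background (2.45 to 2.84), and the myocytes labelled wild type were the highest list at 10 of the 11 regions listed in all 4.

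Between the upstream cluster and the distal regulatory region, 2 further peaks were found. The region at 10.4 kb (chr7:53621072-53621721) was listed in all groups but was weak in 3 of them. Its summit reads were 27 in wild-type myoblasts, 34 in MyoD-null myoblasts, 67 in myocytes labelled wild type and 29 in myocytes labelled MyoD-null. Over the genome-wide background these were 3.30, 3.98, 12.7 and 4.58. The myocytes labelled wild type were thus 2.77 times (1.77 to 4.44) as high as the other myocytes, a ratio above that of 97.2% of the regions these lists shared. The deposited folds were 3.05, 3.09, 5.92 and 4.09. By fold the ratio between the myocytes was 1.45, above 83.9% of shared regions. The scaled local background was 1.98 times as high in myocytes labelled wild type as in the other myocytes. The second peak, at 12 kb (chr7:53619621-53620103), was listed only in myocytes labelled wild type, with a fold of 5.79 and 54 reads. At 12, 10.4 and 5.1 kb upstream, the same list was therefore the highest or the only one. This was not particular to the stretch. By summit height that list was the highest at 10 of the 11 regions of the window listed in all 4 groups. It was also the only list at 27.4 and 33.9 kb downstream.

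Farther upstream, 2 strong peaks were present in every list. At 38.8 kb (chr7:53592630-53593678) the folds were 4.69, 5.28, 5.46 and 5.56, in the order wild-type myoblasts, MyoD-null myoblasts, myocytes labelled wild type and myocytes labelled MyoD-null. At 34.8 kb (chr7:53596635-53597567) they were 4.74, 4.51, 5.63 and 5.70. The 2 myocyte lists had nearly equal summit reads, 130 against 134 at 38.8 kb and 136 against 136 at 34.8 kb, labelled wild type first. Over the genome-wide background these were 24.6 against 21.1 and 25.7 against 21.5. The height ratios were 1.16 (0.907 to 1.49) and 1.2 (0.938 to 1.53), against a median of 1.26 over all shared regions. Which gene these peaks serve was not examined.

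Downstream of the start, the peak at 4.3 kb (chr7:53635272-53636361) behaved unlike the rest. Its fold was 3.28 for wild-type myoblasts, 3.74 for MyoD-null myoblasts, 2.69 in myocytes labelled wild type and 4.08 in myocytes labelled MyoD-null. Summit reads were 93, 113, 77 and 115. It was the only region present in all lists where myocytes labelled wild type were not the highest by summit height, at 14.6 times background against 18.1 in the other myocytes. The fold ratio between these lists, labelled wild type over labelled MyoD-null, was 0.660, and 2.29% of shared regions had a lower one. The height ratio of 0.803 had a counting interval that included 1 (0.594 to 1.08). In myocytes labelled wild type this region held 2 separate peaks, at 3.6 and 4.3 kb, and in myocytes labelled MyoD-null it held 1 peak of 998 bp.

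A narrow peak near the end of the gene, 2.7 kb after the start (chr7:53634458-53634694), was listed in MyoD-null myoblasts with a fold of 2.15 and in myocytes labelled wild type with 2.02. These are among the lowest folds of both lists, with 0.882% and 0.327% of peaks below them. The region at 41.8 kb downstream (chr7:53673494-53673822) was listed in the same 2 groups, with folds of 2.52 and 3.67. Such regions, listed in those 2 groups and no other, made up 2.21% of all regions. By the peak names both lists are MyoD-null, and by the labels they are of different genotypes. With a −log10 q of at least 5, the region at 41.8 kb was listed in both and that at 2.7 kb in MyoD-null myoblasts alone. With all lists cut to equal length, neither region was listed in both.

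The downstream side held the other differences. The strongest peak there, at 20.4 kb (chr7:53651461-53652628), had folds of 4.48 in wild-type myoblasts and 4.93 in MyoD-null ones, and of 7.26 and 7.0 in myocytes labelled wild type and labelled MyoD-null. Summit reads were 77, 106, 98 and 88, or 9.41, 12.4, 18.5 and 13.9 times the genome-wide background. Both myocyte lists lay above both myoblast lists by fold and by this height. For myocytes labelled MyoD-null over MyoD-null myoblasts the height ratio was 1.12 (0.834 to 1.5), below the 1.28 of all shared regions. The other ratios of a myocyte over a myoblast list ran from 1.48 to 1.97, with intervals above 1. At 32.4 kb (chr7:53663711-53664414) no peak was listed in wild-type myoblasts, and the summit reads were 36 in MyoD-null myoblasts, 83 in myocytes labelled wild type and 26 in myocytes labelled MyoD-null. Over the genome-wide background this came to 3.83 times (2.44 to 6.20) as much in the first myocyte list as in the second, above 99.3% of shared regions. The deposited folds were 2.43, 5.27 and 3.41 in these lists. The fold ratio between the myocytes was 1.55, above 88.4% of shared regions, with a scaled local background 2.59 times as high in the first. The class of regions missing only from wild-type myoblasts made up 1.63% of the genome's regions.

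A further pair of downstream regions belonged to myocytes labelled wild type alone. They lay at 27.4 kb (chr7:53658988-53659416), with a fold of 5.26 and 56 reads, and at 33.9 kb (chr7:53665469-53666314), with 3.77 and 55 reads. MyoD-null myoblasts had 2 regions of their own, at 9.3 kb (chr7:53641054-53641521) with a fold of 2.72 and at 21.4 kb (chr7:53653154-53653519) with 2.0. Regions of that class were 5.45% of the total. Both were weak and neither was listed at a −log10 q of at least 5. The last 2 regions, at 16.9 kb (chr7:53648475-53648930) and 46.6 kb (chr7:53678190-53678582), were listed in all groups with folds of 2.63 to 4.05 and 3.29 to 5.52.

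Loss of MyoD in myoblasts, where labels and peak names give the same genotypes, was compared next. Every one of the 11 wild-type peaks of the locus overlapped a MyoD-null peak, while 12.8% of all wild-type myoblast peaks had no such overlap. In the other direction, 5 of the 17 MyoD-null peaks had no wild-type counterpart, against 14.8% of that list. These 5 had folds of 2.0 to 2.72. The count was 2 at a −log10 q of at least 5, 1 with lists of equal length and 8 by a reciprocal overlap of 50%. At a fold of at least 5 it was 1, but not 1 of these 5. That peak, 38.8 kb upstream, had a fold of 5.28, and its wild-type counterpart, at 4.69, fell below the limit. At the 11 shared regions the median fold ratio, wild type over MyoD-null, was 0.961, with a range of 0.876 to 1.13. Over all shared regions the median was 0.989 and the 5th to 95th percentiles ran from 0.792 to 1.24. None of the 11 was at least 1.5 times higher in wild type, compared with 0.247% of shared regions. By summit height 9 of the 11 were lower in wild type, with a median ratio of 0.877 against 0.984 genome-wide, and each of the 11 counting intervals included 1. The regions of the window listed in wild-type myoblasts were thus all listed in MyoD-null myoblasts, with fold ratios within the spread of the genome. Which gene each region serves was not examined.

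Between the 2 myocyte lists, 6 of the 19 peaks of the myocytes labelled wild type had no overlap in the myocytes labelled MyoD-null. That is close to the background of 32.0%. None of the 12 peaks of the latter was absent from the former, where the background was 13.1%. The 6 were the regions at 12 and 5.1 kb upstream and at 2.7, 27.4, 33.9 and 41.8 kb downstream. At the 12 regions listed in both, the median fold ratio, labelled wild type over labelled MyoD-null, was 0.995. This was below the 1.12 of all shared regions, and 4 of the 12 exceeded that value. Of the 12, 2 were at least 1.5 times higher in myocytes labelled wild type, against 13.6% of shared regions. By summit height 11 of the 12 were higher in that list, with a median ratio of 1.32 against 1.26 over all shared regions. Read by peak names, the 6 extra peaks belong to MyoD-null myocytes and wild-type myocytes have none of their own.

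For differentiation with genotypes taken from the labels, 7 of the 19 peaks of wild-type myocytes had no overlap in wild-type myoblasts, against 30.0% of that list. All 11 myoblast peaks were still listed in the myocytes, where 18.0% of the whole myoblast list was not. The median fold ratio over the 11 regions listed in both was 1.18, below the 1.27 of all shared regions. By summit height the median ratio was 1.97, above the 1.61 of all shared regions, and 9 of the 11 exceeded that value. At 3 of the 11 the fold was at least 1.5 times higher in myocytes, against 26.0% of shared regions. In MyoD-null cells by label, all 12 myocyte peaks overlapped a myoblast peak (background without overlap 16.2%). Of the 17 myoblast peaks, 4 were missing from the myocytes (background 24.7%). The count was 2 at a −log10 q of at least 5, 0 at a fold of at least 5, 1 with lists of equal length and 7 by reciprocal overlap. All 12 fold ratios were above 1, as were 73.2% over all shared regions, with medians of 1.21 and 1.12. By summit height 10 of the 12 were above 1, with a median of 1.37 against 1.28. No fold ratio reached 1.5, against 9.27%.

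Genotypes taken from the peak names gave other pairs of lists. Wild-type differentiation then added 1 of 12 myocyte peaks, the region at 32.4 kb downstream (background 15.5%), and lost none of the 11 myoblast peaks (background 22.3%). The distal regulatory region was then listed at neither stage in wild-type cells. The median fold ratio over the 11 regions listed in both was 1.20 against 1.14 genome-wide, and 1 of the 11 reached 1.5, against 9.37%. MyoD-null differentiation added 5 of 19 peaks (background 30.0%) and lost 2 of 17 (background 19.8%). Those 5 peaks were the 4 regions listed in that group alone, the distal regulatory region among them, and the smaller peak at 3.6 kb. Over the 14 regions listed in both, the median fold ratio was 1.21 against 1.26 genome-wide, and 4 of the 14 reached 1.5, against 25.9%. By summit height the medians were 1.60 against 1.29 for the wild type and 1.74 against 1.62 for the MyoD-null. The comparisons that use the same list share its samples and are not independent of each other.

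**Figure D4:**
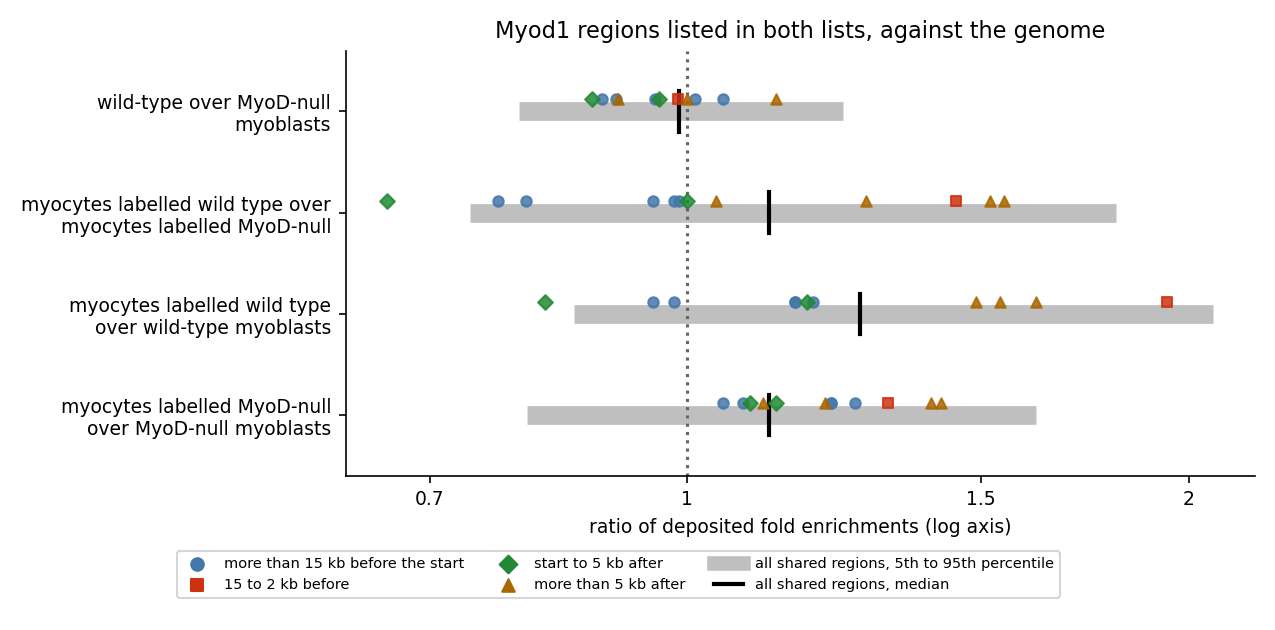
Ratio of deposited fold enrichments (log axis) at regions of the Myod1 window listed in both lists of 4 comparisons, as points by position relative to the gene start. Grey bars show the 5th to 95th percentile and black ticks the median of all shared regions of the genome, and the region 10.4 kb upstream has the highest ratio, 1.94, for myocytes labelled wild type over wild-type myoblasts.

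The window as a whole was richer in peaks than most of the genome. The window held 11 peaks in wild-type myoblasts, 17 in MyoD-null myoblasts, 19 in myocytes labelled wild type and 12 in myocytes labelled MyoD-null. Among all windows of 100 kb, 91.1%, 98.7%, 98.8% and 94.1% held fewer. Peaks covered 8.40, 8.99, 12.6 and 8.34 kb of it. Covered length thus differed little between the myoblast lists despite their different numbers of peaks. The median peak width in the window was 878 bp in wild-type myoblasts and 468 bp in MyoD-null myoblasts. Of the 20 regions, 11 were listed in all 4 groups, or 55.0%, against 45.9% of all regions. Upstream of the start, 6 of 8 regions were listed in every group, and more than 5 kb downstream 3 of 9 were.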

How the data were processed

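Peaks were called with MACS2 on mm9, and deepTools was also used, per the submitters' processing notes, which give no versions. The peak names hold "merge" and MAPQ30, per the file contents, so calling is taken to be on merged samples. The sources used here name no ATAC-seq aligner, no settings and no shift of reads for the transposase. The fold enrichment is a ratio of summit reads to local background, deposited by the authors. The −log10 p and −log10 q values of each peak and the score (10 times −log10 q, not used for any result) were also deposited by the authors. The lowest −log10 q of 2.02 to 2.04 matches a limit of 0.01.

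Only autosomes 1 to 19 and both sex chromosomes entered. Fold equals (reads + 1) / (background + 1), and −log10 p is the Poisson probability of more reads. Solving both gave a whole number of summit reads and the local background, matching −log10 p within 0.01 for 100.0% of peaks. The most frequent local background was taken as genome-wide, and it may include mitochondrial reads. Read totals per sample are unknown. Overlap means at least 1 bp and matched bedtools 2.31.1. Within a merged region the peak with the highest fold stood for each list. Ratios of summit heights have 95% exact binomial (Clopper-Pearson) intervals. Computation used numpy 2.4.6 and scipy 1.17.1, tables pandas 2.3.3 and plots matplotlib 3.10.9 under Python 3.11.15. The steps were tested on simulated data.

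Named regions were those from 25 kb before to 5 kb after the start, those not listed in all 4 lists, and the 3 strongest others. The remaining 4 are given for completeness. The members and rules were chosen with earlier results of these data known. Alternatives were a −log10 q of at least 5, a fold of at least 5, lists of equal length, any base in the window, the central 50 kb, a reciprocal overlap of 50%, summits within 250 bp, ratios divided by the genome median, summit height, mean of peaks and genotypes by peak names. The RefSeq promoter table used here (GRCm38) gave no entry that matched Myod1, and no mm9 sequence was used here, so no sequence is shown.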

Additional observations from a re-analysis of the deposited data

Results flagged for a closer look

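With genotypes taken from the labels, the number of peaks in the Myod1 window went up with differentiation in one genotype and down in the other. Myocytes minus myoblasts came to 8 in cells labelled wild type and to -5 in cells labelled MyoD-null. With lists of equal length these were 5 and -1. With genotypes taken from the peak names both rose, by 1 in wild-type and 2 in MyoD-null cells.

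Fold ratios of myocytes over myoblasts lay on opposite sides of 1 at 3 regions listed in all groups. By the labels they were 0.981 in wild-type and 1.22 in MyoD-null cells at 26.1 kb upstream, 0.953 and 1.08 at 23.0 kb upstream, and 0.821 and 1.09 at 4.3 kb downstream. By the peak names each direction was exchanged, with 1.27 and 0.938, 1.19 and 0.863, and 1.24 and 0.720 in the same order. By summit height all of these ratios were above 1. With 1 list per group none of these differences was tested.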

How the results depend on the processing

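The peaks at 12 and 5.1 kb upstream stayed listed in myocytes labelled wild type at a −log10 q of at least 5, at a fold of at least 5 and with lists of equal length. These settings only remove peaks, so the absence of both peaks from the other lists could not change and was not tested. No paired analysis was possible because each list merges its 3 samples, and for the same reason no replicate could be left out. Several counts depended on the choices. At a fold of at least 5, peaks in the window numbered 0 for wild-type myoblasts, 1 for MyoD-null myoblasts, and 9 and 3 for myocytes labelled wild type and MyoD-null. In the central 50 kb they numbered 7, 11, 11 and 7. MyoD-null myoblast peaks absent from wild-type myoblasts were 2, 1, 1 and 8 with the q limit, the fold limit, equal lengths and reciprocal overlap. Those absent from MyoD-null myocytes were 2, 0, 1 and 7. The limits applied to both lists, so a peak also counted as absent where its counterpart fell below the limit. Wild-type myoblast peaks absent from MyoD-null myoblasts were 2 by reciprocal overlap. MyoD-null myocyte peaks absent from MyoD-null myoblasts were 1, 2, 1 and 2 in the order above, and 1 was absent from wild-type myocytes by reciprocal overlap. By peak names, wild-type myocytes had 0 peaks absent from MyoD-null myocytes and 1 absent from wild-type myoblasts. MyoD-null myocytes then had 6 absent from wild-type myocytes and 5 absent from MyoD-null myoblasts. Of the latter's peaks, 2 had no match in these myocytes. The fold ratio at 4.3 kb between myocytes became 1.52 by peak names, because the 2 lists exchange places. Divided by the genome median, the median fold ratio was 0.927 for wild-type differentiation (a reversal), 1.08 for MyoD-null differentiation and 0.895 between myocytes. By summit height the medians were 1.97, 1.37 and 1.32, and 0.877 between myoblasts. For changes other than that exchange and the division by a fixed number, the cause was not tested. In the list with the lowest genome-wide background, the myocytes labelled wild type, a summit over that background needed 15 reads, or 2.84 times that background.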
